A study of Rattus norvegicus and Bos taurus with 6 samples.

Results

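Nuclei with counts of mesothelial genes were examined in the 10x Genomics library of rat mesenteric perivascular adipose tissue (mesPVAT), the fat that surrounds the arcades of resistance arteries and veins in the mesentery. A nucleus was chosen when its unique molecular identifiers (UMIs, 1 per captured transcript) of 8 mesothelial genes summed to at least 2 and to more than its UMIs of 12 genes of other cells. The mesothelial genes were Msln, Wt1, Pkhd1l1, Upk3b, Bnc1, Lrrn4, Krt19 and Gpm6a. The other genes were Plin1, Adipoq and Lipe of adipocytes, Ptprb, Pecam1 and Mecom of endothelial cells, Pdgfra, Dcn and Fbn1 of stromal progenitors, and Ptprc, Mrc1 and Cd163 of macrophages. Krt19 could not be matched in the gene list of this library, so the first sum rests on 7 genes. The rule chose 697 of 5887 nuclei, or 11.8% (exact binomial 95% interval, 11.02 to 12.69%). The choice rests on measured counts, so the levels of the 20 rule genes in these nuclei are a description and no finding.

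The tissue came from male Dahl salt-sensitive rats (SS/HsdMcwiCrl), kept at 22 °C on a normal diet, free of disease per the labels, and snap-frozen. Their age and the number of animals in the library are not given in the sources used here. The labels describe 1 custom isolation for all samples, whereas the supplementary methods give an older protocol with sorting of DAPI-stained nuclei for the 10x library, and this was not settled. The series holds 19424 nuclei in 6 libraries, 1 per condition. In addition to the 10x library, 4 were made with the Parse kit from rats of the same strain and sex at 22 °C, from mesPVAT, retroperitoneal (RP) fat, thoracic aortic PVAT (taPVAT) and subscapular brown fat (BAT). A cow library was not used. With 1 library per condition no difference was tested, and all intervals are at 95% and cover counting error only.

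Mesothelium is the single sheet of flattened cells that lines the peritoneal, pleural and pericardial cavities and covers the mesentery. It is of mesodermal origin yet carries epithelial features such as tight junctions, desmosomes, keratins and apical microvilli, and it secretes a lubricating fluid. Msln encodes mesothelin, a surface glycoprotein anchored in the membrane, and Wt1 encodes a zinc finger transcription factor of the developing and adult serosa. Gpm6a encodes a membrane glycoprotein also known from neurons. Pkhd1l1 encodes a large membrane protein that is also found in lymphatic endothelium.

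The library held 1237543 UMIs, of which the chosen nuclei held 202589, or 16.4%. It was shallow, with a median of 195 UMIs per chosen nucleus (184 to 208) and a range of 84 to 3466. The other 5190 nuclei had a median of 156 UMIs (153 to 159). A rule that asks for 2 UMIs takes deep nuclei more readily than shallow ones, and this gap in depth is in part built in. When nuclei were thinned to 200 UMIs, 337 chosen nuclei and 1762 others remained, while 360 and 3428 shallower ones were left out. The median number of genes was then 178 (177 to 179) in chosen nuclei and 176 (176 to 177) in the others, against 165 and 133 genes without thinning. Mitochondrial genes took 0.140% of the UMIs of chosen nuclei and 0.177% of those of the others.

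Most chosen nuclei passed by few counts. The mesothelial sum was exactly 2 in 310 of them, 3 in 146, 4 in 88, 5 in 40 and 6 or more in 113, with a maximum of 90. The sum of the genes of other cells was 0 in 450 chosen nuclei and 1 in 206. Just outside the rule stood 493 nuclei with a mesothelial sum of 1 and no UMI of the other genes, and 63 nuclei with a sum of at least 2 that was matched or exceeded by the other genes. A single gene made up the whole mesothelial sum in 181 chosen nuclei, which was Pkhd1l1 in 74, Gpm6a in 74, Msln in 24 and Wt1 in 8. Gpm6a and Pkhd1l1 were found together in 238 chosen nuclei, Gpm6a and Msln in 221, and Msln and Wt1 in 73.

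As a description of the choice, chosen nuclei held 463 UMIs of Msln in 316 nuclei, 244 of Wt1 in 158, 720 of Pkhd1l1 in 373 and 1432 of Gpm6a in 502. Bnc1, a zinc finger transcription factor of epithelia, had 39 UMIs. Upk3b, a uroplakin, had 13, and Lrrn4, a leucine-rich repeat membrane protein, had 10. Single UMIs of these genes were also found in nuclei that should lack them. Msln had a UMI in 3.22% of the 1242 nuclei assigned to the adipocyte list (median 243 UMIs), and Gpm6a in 5.56% of them. The rule caps these shares, since nuclei with a larger mesothelial sum had left this set. After thinning to 200 UMIs they were 2.79% and 3.30%. In nuclei assigned to the stromal list the shares were 1.69% for Msln and 6.78% for Gpm6a. They differ by depth and list, and doublets were not removed, so they set no limit on the background of the library.

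Each gene was next measured in nuclei chosen without it, so that its own counts did not decide the choice. Levels are given as CPM, the UMIs of a gene over a set of nuclei scaled by all UMIs of that set. Ratios are CPM in the chosen nuclei over CPM in all remaining nuclei. Those of the rule genes in this paragraph have nothing added, while ratios of other genes further on have 0.5 UMI added on each side. Wt1 remained 5.28-fold higher (4.25 to 6.56) in the 645 nuclei chosen by the other genes, and Gpm6a 6.68-fold higher (6.09 to 7.33) in 410 nuclei. Msln was 3.23-fold (2.75 to 3.78) and Pkhd1l1 3.41-fold higher (2.98 to 3.90). Bnc1 was 4.15-fold higher (2.45 to 6.96) on 29 UMIs. Upk3b and Lrrn4, with 7 and 8 UMIs, stood at 3.60 (1.16 to 10.5) and 8.19 (2.36 to 31.8). All 7 intervals lay above 1, that of Upk3b barely, and the ratios under the rule as given, from 7.66 to 17.3, were larger for every gene. A ratio above 1 is in part built in even here, since nuclei with many UMIs of the other genes, among them 1242 of the adipocyte list, stay on the other side.

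**Figure D1:**
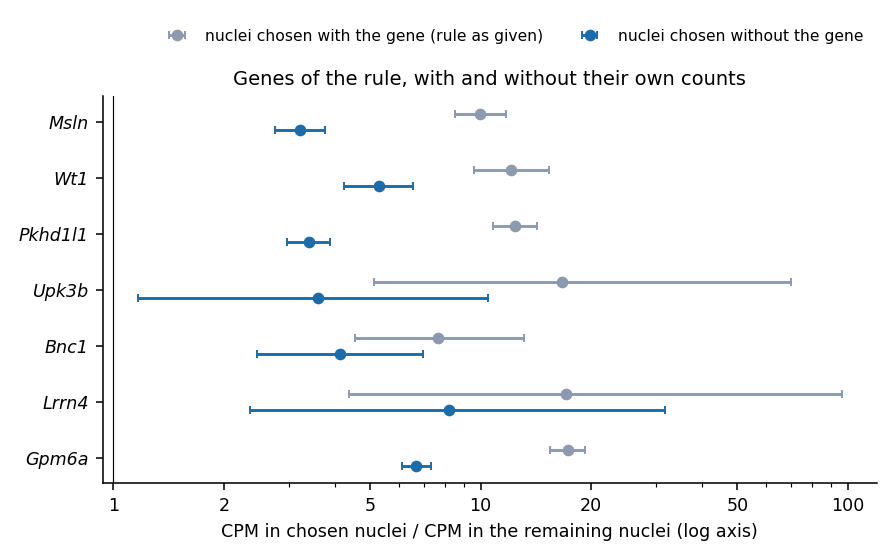
Ratio of CPM in chosen nuclei to CPM in all remaining nuclei (log axis) for the 7 matched mesothelial genes of the rule. Grey points are nuclei chosen with the gene and blue points nuclei chosen without it, bars are 95% intervals of counting error, and every blue point lies left of its grey point and right of 1.

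The label was borne out only in part. The nuclei with at least 100 UMIs were clustered with the 20 rule genes removed, which gave 14 clusters of 5135 nuclei, and 640 chosen nuclei took part. Of these, 272 (42.5%; 38.6 to 46.4%) lay in a cluster of 508 nuclei led by Fras1, Ror1, Dhrs9 and Ppp2r2b, here cluster 1. Another 97 (15.2%; 12.5 to 18.2%) lay in a cluster of 309 nuclei led by Pde1c, Glis3, Pgm5 and Foxp2, here cluster 2. The remaining 271 were spread over the other 12 clusters, with 79 and 60 in clusters 3 and 4, where the median nucleus had 145 and 138 UMIs. The leading genes of the clusters named here, apart from those in the list of 25 below, were chosen after their values were seen.

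The mesothelial genes of the rule were left out of the clustering, but they decided which nuclei were chosen, so their levels by cluster are a description. Chosen nuclei with little Msln and Wt1 had to reach their sum through other genes of the rule. Msln stood at 2321 CPM (2030 to 2641) in chosen nuclei of cluster 1 and at 279 CPM (149 to 477) in those of cluster 2. Wt1 stood at 1645 CPM (1402 to 1917) and 150 CPM (60.4 to 309.6). In both genes the chosen nuclei of cluster 2 were near the nuclei outside the rule, which stood at 229 CPM of Msln and 99.5 CPM of Wt1. Pkhd1l1, whose order is in part built in by the rule, had 2452 CPM (2153 to 2780) in cluster 1 and 5774 CPM (5104 to 6506) in cluster 2.

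Wfdc21, a whey acidic protein family gene that was given as a marker but is not in the rule, had 85 UMIs in 55 chosen nuclei of cluster 1, or 858 CPM (685 to 1060). It had 1 UMI in the chosen nuclei of cluster 2, or 21.5 CPM (0.543 to 119.6), and 79.2 CPM outside the rule. Fras1, a matrix protein of epithelial basement membranes, stood at 3673 CPM (3305 to 4070) in cluster 1 and at 21.5 CPM on 1 UMI in cluster 2. Ror1, a Wnt5a receptor, stood at 4460 CPM (4053 to 4895) and at 42.9 CPM (5.20 to 155.1).

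Prox1, the transcription factor that defines lymphatic endothelium, had 78 UMIs in 35 chosen nuclei of cluster 2, or 1674 CPM (1323 to 2089), but 2 UMIs or 20.2 CPM (2.44 to 72.9) in cluster 1. Emcn, an endothelial sialomucin, had 36 UMIs in cluster 2 and none in cluster 1, and Cdh5, the cadherin of endothelial junctions, 21 and 3. Foxp2, a forkhead transcription factor, stood at 4743 CPM against 50.4 CPM. These genes were among those clustered, so their split between clusters is a description. The chosen nuclei of cluster 2 are called by their leading genes and not mesothelial.

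The 271 chosen nuclei of the other clusters were shallow, with a median of 156 UMIs. Msln stood at 3526 CPM (3033 to 4077) and Wt1 at 1240 CPM (955 to 1583), levels that the rule forces up in shallow nuclei. Wfdc21, outside the rule, had 30 UMIs in them, or 581 CPM (392 to 830), and 30 mesothelial genes outside the rule summed to 6006 CPM (5356 to 6713). Those 30 genes summed to 9212 CPM (8624 to 9829) in chosen nuclei of cluster 1, to 3305 CPM (2804 to 3870) in those of cluster 2 and to 1867 CPM outside the rule. Sulf1, a heparan sulfate 6-O-endosulfatase, had the most UMIs of the list, with 192 of 913 in cluster 1 and 67 of 154 in cluster 2, or 1937 and 1438 CPM. The lymphatic list without Pkhd1l1 stood at 213 CPM in the 271 nuclei and at 212 CPM outside the rule. The adipocyte list stood at 3604 CPM in them, at 1907 CPM in chosen nuclei of cluster 1 and at 7980 CPM outside the rule. Cluster 3 was led by C1qa and ribosomal genes, and Mrc1 was among the leading genes of cluster 4. The part of other cells in these nuclei was not tested.

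**Figure D2:**
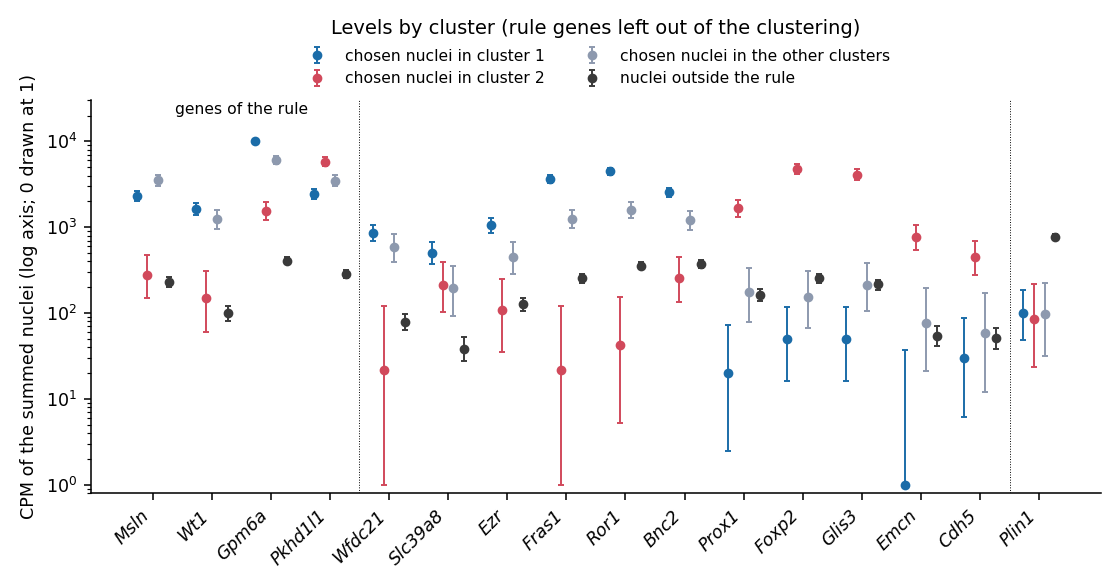
CPM (log axis, 0 drawn at 1) of 16 genes summed over chosen nuclei of cluster 1 (272 nuclei), cluster 2 (97), the other clusters (271) and over the 5190 nuclei outside the rule, with exact Poisson 95% bars. Msln, Wt1, Wfdc21, Fras1 and Ror1 are high in blue and low in red, while Prox1, Foxp2, Glis3 and Emcn are high in red and low in blue.

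Chosen nuclei were also sorted by Msln and Wt1 themselves, a step added after the data were seen. A UMI of either gene was present in 401 chosen nuclei (median 191 UMIs) and absent from 296 (median 208 UMIs). This is not the split by cluster, since of the clustered nuclei without either gene 76 lay in cluster 1 and 84 in cluster 2. Prox1 had 4 UMIs in the 401 nuclei, or 34.4 CPM (9.37 to 88.0), and 85 UMIs in the 296 nuclei, or 985 CPM (787 to 1218). Over the lymphatic list without Pkhd1l1, 5 genes were in the file, and Ccl21 was at 0 in chosen nuclei. The blood endothelial list, with 10 of 10 genes in the file, summed to 172 CPM with Msln or Wt1 and to 1948 CPM without, and its gene with the most UMIs in chosen nuclei was Emcn with 40. The part of such nuclei in the results over all chosen nuclei was not tested, and values with and without them are given below.

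The absence of Msln and Wt1 did not mark off one kind of nucleus. In the 74 nuclei whose sum was Pkhd1l1 alone, Prox1 stood at 1786 CPM and Foxp2 at 3055 CPM. In the 74 whose sum was Gpm6a alone, Prox1 stood at 72.0 CPM on 1 UMI, Wfdc21 at 864 CPM (447 to 1510), and the 30 mesothelial genes outside the rule summed to 7852 CPM. Over the rule sum, those 30 genes, which did not decide the choice, summed to 1565 CPM (1481 to 1653) in nuclei with a sum of 0, to 4280 CPM (3827 to 4772) at a sum of 1 with no UMI of the other genes, to 5182 CPM at a sum of 2, to 6636 CPM at 3, to 6426 CPM at 4 or 5 and to 8598 CPM (7945 to 9290) at 6 or more. They summed to 2297 CPM (2021 to 2600) at a sum of 1 with UMIs of the other genes, and to 2755 CPM (2117 to 3524) in the 63 nuclei with a sum of at least 2 that the other genes kept out.

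Across all genes, 6644 had at least 5 UMIs expected in chosen nuclei from their share of all UMIs, the rule genes left out. A gene was called higher at a ratio of at least 2 and lower at a ratio of at most 0.5. Of these, 791 genes (11.9%) were higher and 980 (14.8%) lower in chosen nuclei, with a median log2 ratio of −0.023. In the 401 nuclei with Msln or Wt1, 498 of 4749 genes (10.5%) were higher and 885 (18.6%) lower. In the 296 without, 499 of 3814 (13.1%) were higher and 668 (17.5%) lower. All 3 comparisons share the 5190 nuclei outside the rule. The limit of 5 counts the UMIs of chosen nuclei too, so a gene with few UMIs elsewhere could pass it only by being high in them. With the limit set on the other nuclei alone, added after the data were seen, 661 of 6583 genes (10.0%) were higher and 1063 (16.1%) lower, and the counts of lists that changed are given under both limits.

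The 25 genes with the largest ratios ran from 7.13 to 12.1, and 15 of them passed the limit on the other nuclei alone, among them Dhrs9, Slc39a8, Fras1, Ror1, Gcnt2, Flrt2, Dsp, Dpp4 and Wfdc21 but not Upk1b, Wnt2b, Cdh3, Cgn or Ildr2. Dhrs9, a retinol dehydrogenase, had 79 UMIs in 61 chosen nuclei and 40 UMIs in the others, a ratio of 10.0 (6.81 to 15.2). Slc39a8, a zinc and manganese importer, had a ratio of 9.02 (6.07 to 13.7), and Upk1b, a tetraspanin of urothelial plaques, 8.51 (4.17 to 18.7) on 22 UMIs. Fras1, with 433 UMIs in 197 chosen nuclei, was 8.37-fold higher (7.17 to 9.80), and Ror1, with 534 UMIs in 219, was 7.37-fold higher (6.45 to 8.44). Gcnt2, a glycosyltransferase that branches I antigen chains, and Flrt2, an adhesion protein with leucine-rich repeats, had ratios of 7.66 and 7.49. Wnt2b, a Wnt ligand, had 7.42, and Dpp4, a surface peptidase, 7.23. Wfdc21 had 116 UMIs in 80 chosen nuclei, or 573 CPM against 79.2 CPM, a ratio of 7.21 (5.40 to 9.71).

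Wfdc21 was near absent from the nuclei of other lists, with 4 UMIs over 1242 adipocyte nuclei, 1 over 177 stromal nuclei and 0 over 55 endothelial and 95 macrophage nuclei. At a depth of 200 UMIs it was found in 10.98% of chosen nuclei (7.85 to 14.8%), in 0.253% of adipocyte-list nuclei and in 1.08% of all others, against 11.5%, 0.322% and 1.41% without thinning. It therefore missed most chosen nuclei at this depth.

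With Msln or Wt1 the ratios of most of the 25 genes were larger, Pard6g, Me3 and RGD1561149 apart. Fras1 reached 11.4 with and 4.29 without, Ppp2r2b, a phosphatase subunit, 12.0 and 3.30, and Wfdc21 9.54 and 4.14. Dsp, the desmosomal plaque protein, had 7.44 and 7.28. Pard6g, a polarity protein, stood at 1.52 (0.254 to 4.50) on 3 UMIs with and at 15.5 (8.37 to 29.5) without, and RGD1561149, whose ID is named Nhsl3 in the Parse files, stood at 7.02 and 19.6.

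**Figure D3:**
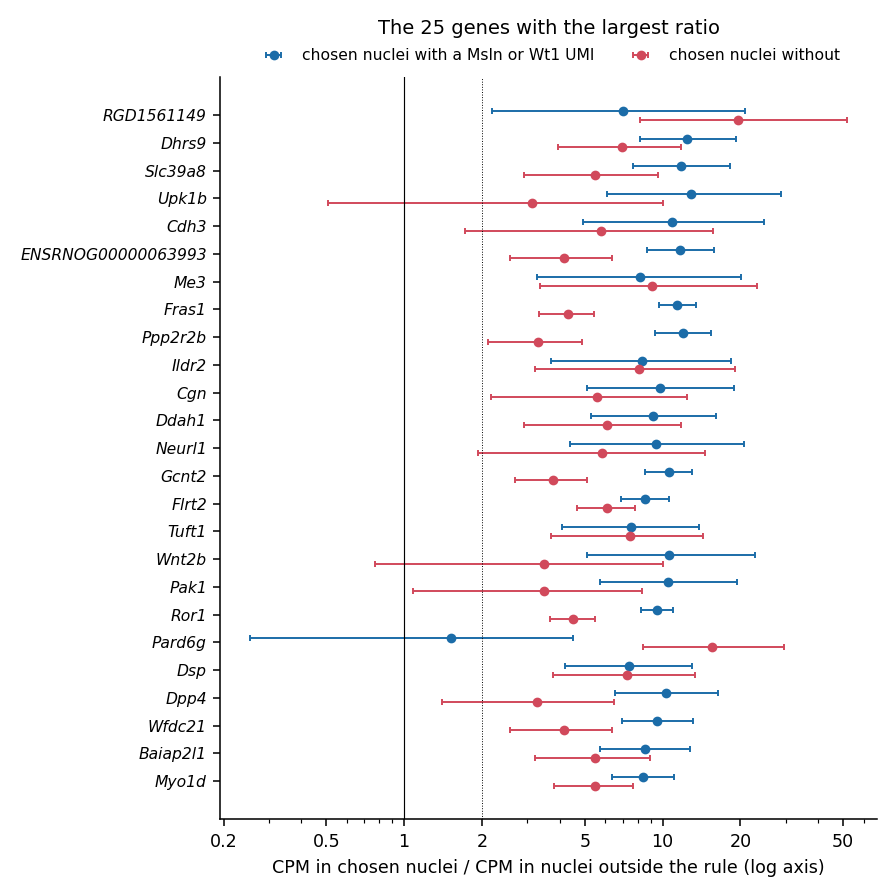
Ratio of CPM in chosen nuclei to CPM in nuclei outside the rule (log axis) for the 25 leading genes, in chosen nuclei with (blue) and without (red) a UMI of Msln or Wt1, with 95% intervals of counting error. Blue points are the larger ones for most genes, while Pard6g stands at 1.52 in blue and 15.5 in red.

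The stretches before the start of a gene were read for the 25 leading genes, since these genes were found high together. RefSeq starts on GRCr8 were matched for 20 of them, and the 250 bases before each start were searched on both strands. CATTCC, the core bound by TEAD factors, was in 2 of the 20 genes (Ildr2 and Upk1b), against 12.9% of all 27457 genes. GCGTGGG, a core bound by WT1 and EGR factors that does not overlap the other, was in 2 (Me3 and Ppp2r2b), against 4.12% of all genes. Ppp2r2b passed the limit on the other nuclei alone, but Ildr2, Upk1b and Me3 did not. These counts are a description, and no result is drawn from them. Printed here are Upk1b, with CATTCC in capitals 178 bases before the start (chr11:75459131-75459380, + strand), and Wfdc21, the marker outside the rule, which holds neither motif (chr10:69125086-69125335, + strand).
Upk1b: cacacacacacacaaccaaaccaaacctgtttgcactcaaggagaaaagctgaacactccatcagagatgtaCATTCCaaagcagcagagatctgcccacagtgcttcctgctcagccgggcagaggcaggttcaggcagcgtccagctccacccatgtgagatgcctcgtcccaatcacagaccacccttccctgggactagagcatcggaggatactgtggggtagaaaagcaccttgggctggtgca
Wfdc21: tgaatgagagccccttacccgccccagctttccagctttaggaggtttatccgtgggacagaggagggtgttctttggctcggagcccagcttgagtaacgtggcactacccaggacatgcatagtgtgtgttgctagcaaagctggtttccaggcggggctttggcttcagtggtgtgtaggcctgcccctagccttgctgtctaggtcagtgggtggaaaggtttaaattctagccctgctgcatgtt

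Lists of genes were then read by role. The list of mesothelial genes outside the rule had 32 members, of which 30 were in the file and 19 had enough expected UMIs. Of these, 15 were higher and 0 lower, with a median log2 ratio of 2.11, against 11.9% higher, 14.8% lower and a median of −0.023 over all genes. Under the limit on the other nuclei alone 11 of 15 were higher and 0 lower, with a median of 2.09, against 10.0% and 16.1% of all genes. The list holds Wfdc21, Upk1b, Slc39a8 and Ildr2 of the 25 leading genes, of which Upk1b and Ildr2 did not pass that limit. Ezr, which ties microvilli to the cell cortex, stood at 666 CPM against 128 CPM, 5.22-fold higher (4.08 to 6.69). Efemp1, a secreted matrix glycoprotein, was 4.26-fold higher (3.44 to 5.26), Aldh1a2, which makes retinoic acid, 4.52-fold (3.22 to 6.33), and Pdpn, a mucin-type glycoprotein of mesothelium and lymphatics, 4.31-fold (3.04 to 6.08). Cldn15, a claudin, Rspo1, a Wnt agonist, Nkain4 and Krt7, a simple keratin, had ratios of 5.76, 5.29, 4.37 and 3.74. Known mesothelial genes at or near 0 included Calb2 (calretinin) with 0 UMIs, Krt8 with 3 and Krt18 with 5. In the nuclei with Msln or Wt1, 11 of 14 tested genes were higher and 2 lower, with a median of 2.39, against 10.5% and 18.6% of all genes. Without, 6 of 8 were higher and 0 lower, with a median of 1.54, against 13.1% and 17.5%.

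Among 19 serosal transcription factors, 11 were tested, 6 were higher and 0 lower (median log2 ratio, 1.07), where 11.9% of all tested genes were higher and 14.8% lower. Under the limit on the other nuclei alone 5 of 10 were higher, against 10.0% of all genes. Osr1, an early mesodermal factor, was 7.04-fold higher (3.72 to 13.8) on 25 UMIs. Bnc2, a paralog of Bnc1, had 327 UMIs in chosen nuclei and was 4.33-fold higher (3.72 to 5.03). Sox6, Meis1, Gata6 and Meis2 had ratios of 2.94, 2.69, 2.59 and 2.09. Tead1, a factor of the Hippo pathway, stood at 1.16 (0.93 to 1.42). Gata4 and Hand2 had no UMI in chosen nuclei.

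Of 29 genes of epithelial junctions and polarity, 21 were tested, 11 were higher and 1 lower (median, 1.01), where 11.9% of all tested genes were higher and 14.8% lower. Under the limit on the other nuclei alone 9 of 19 were higher, against 10.0% of all genes. With Msln or Wt1 4 of 19 were higher and 1 lower, against 10.5% and 18.6% of all genes. Without, which holds most of the Prox1 UMIs, 10 of 15 were higher and 2 lower, against 13.1% and 17.5%. Dsp was 7.29-fold higher (4.49 to 12.1), Cdh3 (P-cadherin) 8.51-fold (4.17 to 18.7) and Cgn (cingulin of tight junctions) 7.85-fold (4.37 to 14.7). Cdh3 and Cgn did not pass the limit on the other nuclei alone, under which the median of the list was 0.94. Patj, of the Crumbs complex, and Dsg2, a desmosomal cadherin, had ratios of 4.96 and 3.70. Cdh1 (E-cadherin) had 0 UMIs in chosen nuclei and 5 in the others.

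Of 24 tested genes of basement membrane and matrix, 2 were higher and 6 lower (median, −0.31), where 11.9% of all tested genes were higher and 14.8% lower, so the count of higher genes is no result about the list. The pair that was higher were the neighbouring collagen IV chains Col4a6, with 42 UMIs and a ratio of 6.89 (4.25 to 11.4), and Col4a5, with 64 UMIs and 4.31 (3.04 to 6.08). The chains of ordinary basement membranes were lower, with ratios of 0.22 (0.15 to 0.30) for Col4a1 and 0.23 (0.13 to 0.35) for Col4a2. Lamc1, a laminin chain, and Hspg2 (perlecan) had 0.39 and 0.41. Col3a1, a fibrillar collagen, stood at 1.81 (1.56 to 2.09) and at 2.17 in nuclei with Msln or Wt1. In those nuclei 4 of 21 genes of the list were higher and 6 lower, against 10.5% and 18.6% of all genes. In nuclei without, 2 of 19 were higher and 5 lower, against 13.1% and 17.5%.

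Growth factor and Wnt genes numbered 23 among those tested, with 14 higher and 3 lower (median, 1.62), where 11.9% of all tested genes were higher and 14.8% lower. Under the limit on the other nuclei alone 13 were higher and 4 lower (median, 1.24), against 10.0% and 16.1% of all genes. With Msln or Wt1, 10 of 16 were higher and 2 lower, against 10.5% and 18.6% of all genes. Without, 5 of 14 were higher and 4 lower, against 13.1% and 17.5%. Among ligands, Fgf9 was 6.47-fold higher (4.44 to 9.51), Wnt2b 7.42-fold, Bmp4 3.58-fold (2.37 to 5.33), Gas6 3.38-fold (2.64 to 4.30) and Fgf1 3.07-fold (2.31 to 4.03). Of these, Wnt2b did not pass the limit on the other nuclei alone. Among receptors and coreceptors, Ror1 and Ror2 had ratios of 7.37 and 4.14, Gpc3, a glypican, 5.16 (3.85 to 6.92), Met, the receptor of Hgf, 3.90 (2.74 to 5.50), and Egfr 2.36 (1.75 to 3.14). The lower genes were Vegfa at 0.18 (0.12 to 0.25), Igf1 at 0.31 (0.21 to 0.41) and Fzd4 at 0.47 (0.16 to 1.00). Fgf9 stood at 9.24 with Msln or Wt1 and 2.86 without. Hgf ran the other way, with 2 UMIs in the 401 nuclei with and 14 in the 296 without.

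Complement and defence genes had 6 of 13 tested genes higher and 2 lower (median, 0.85), where 11.9% of all tested genes were higher and 14.8% lower. Under the limit on the other nuclei alone 4 of 12 were higher and 3 lower, with a median of 0.045, against 10.0% and 16.1% of all genes. C4a, a complement component, had 300 UMIs in chosen nuclei and was 3.61-fold higher (3.10 to 4.19), while its near-identical neighbour C4b had 0.44 (0.31 to 0.61). Reads of this pair can be split between the copies by the counting, so both values are uncertain. Serping1, the C1 inhibitor, was 4.86-fold higher (2.45 to 9.58), and C1s, Cfb and C1r had ratios of 2.80, 2.17 and 2.06. Ccl2, a chemokine for monocytes, was lower at 0.29 (0.12 to 0.56). In nuclei with Msln or Wt1 the median of the list was −0.052, with 4 of 11 genes higher and 2 lower. Of all genes 10.5% were higher and 18.6% lower there, so the count of lower genes is near the share over all genes.

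Of solute transporters, 4 were tested, 2 were higher and 1 lower (median, 1.09), where 11.9% of all tested genes were higher and 14.8% lower, and the list is too short to read. With Msln or Wt1, 3 of 4 were higher and 0 lower, against 10.5% and 18.6% of all genes. Without, 2 of 4 were higher and 1 lower, against 13.1% and 17.5%. Slc4a4, a sodium bicarbonate cotransporter, was 3.27-fold higher (2.77 to 3.86) on 235 UMIs, and Slc16a1, a lactate carrier, 3.43-fold (2.42 to 4.82). Clic5, an intracellular chloride channel protein tied to ezrin, was lower at 0.49 (0.24 to 0.85). Aqp1, the water channel, had 5 UMIs. Among 9 tested retinoid genes, Aldh1a3, which makes retinoic acid, was the 1 higher at 4.12 (2.59 to 6.48), and 3 were lower (median, 0.45), against 14.8% of all genes. The median was −0.96 in nuclei with Msln or Wt1 and −1.94 in those without, over fewer tested genes. The count of higher genes is near the 11.9% of all tested genes and no result about the list. The lower ones were Rxra at 0.39 and, on 3 UMIs each, Dhrs3 at 0.16 (0.0286 to 0.422) and Rbp4 at 0.35 (0.0600 to 0.929). Of 10 tested genes of the mesenchymal transition and TGF-beta, Tgfbr2 was the 1 higher, at 2.05 (1.62 to 2.55), again near the share over all genes, and 4 were lower (median, −0.35), against 14.8% of all genes, among them Zeb2, Ccn1 and Ltbp1 at 0.20, 0.35 and 0.49. Snai2 and Acta2 had no UMI in chosen nuclei.

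**Figure D4:**
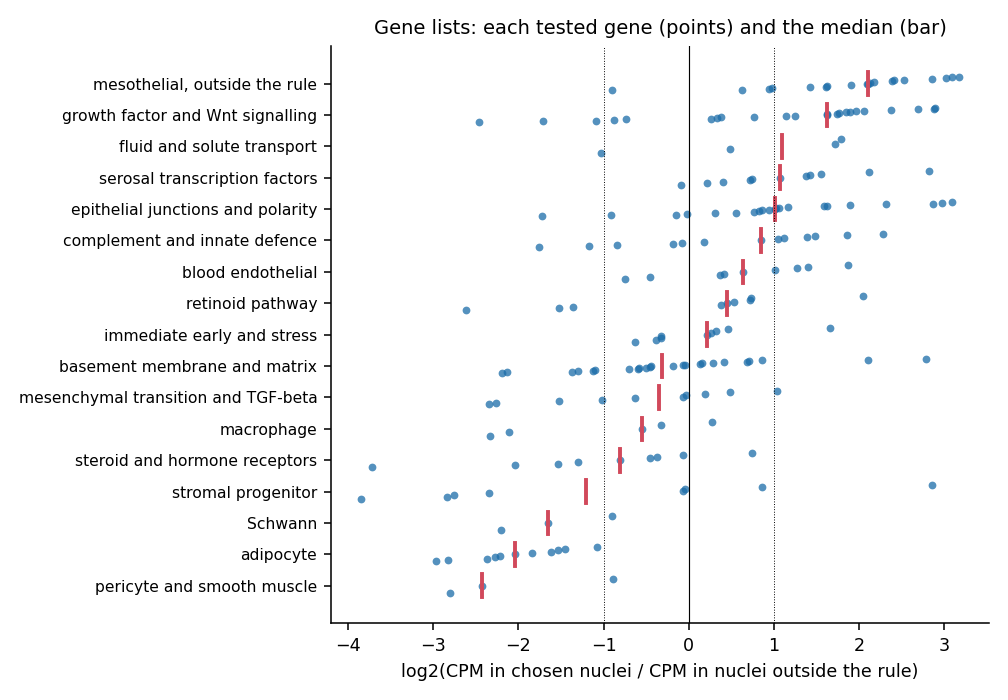
Log2 ratio of CPM in chosen nuclei to CPM in nuclei outside the rule for each tested gene (blue points) of the 17 lists with at least 3 tested genes, with the median of each list (red bar) and dotted lines at the 2-fold limits. The mesothelial list outside the rule stands at 2.11 and the adipocyte list at −2.04.

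Lists of markers of other cells differed in how many genes were lower. The rule removes nuclei with adipocyte, endothelial, stromal and macrophage UMIs from the chosen side and leaves them on the other, so lower counts of these lists are in large part built in. Of all tested genes 14.8% were lower, or 16.1% under the limit on the other nuclei alone. All 11 tested adipocyte genes outside the rule were lower (median, −2.04), and the list summed to 2211 CPM in chosen nuclei and 7980 CPM in the others. Ghr, the growth hormone receptor, and Lpl, lipoprotein lipase, were its genes with the most UMIs, at ratios of 0.34 (0.29 to 0.40) and 0.37 (0.30 to 0.44). Plin1, a rule gene, still stood at 101 CPM in chosen nuclei of cluster 1. Stromal genes had 4 of 8 lower and 1 higher, Dpp4 (median, −1.21), or 5 of 9 and 1 under the limit on the other nuclei alone (−1.89), but the list summed to 2369 CPM in chosen nuclei and 2668 CPM in the others, and Col3a1 had the most UMIs in it. Of the macrophage list 2 of 5 were lower and 0 higher (−0.55), or 3 of 6 and 0 (−1.33), and the list stood at 309 CPM with Msln or Wt1, 684 CPM without and 673 CPM in the other nuclei. Of the Schwann list 2 of 3 were lower (−1.66), and of the pericyte and smooth muscle list 2 of 3 (−2.42), or 3 of 4 (−2.16). Lymphocyte genes summed to 9 UMIs in chosen nuclei, and the 1 tested was lower. Of other tissues a mesenteric dissection could carry, pancreatic acinar genes had 1 UMI over 9 genes and intestinal epithelial genes 1 UMI over 6, with no UMI of Prss1, Pnlip, Vil1 or Fabp2.

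Blood endothelial genes had 4 of 9 tested genes higher and 0 lower over all chosen nuclei (median, 0.64), where 11.9% of all tested genes were higher and 14.8% lower. In those with Msln or Wt1, 0 of 6 were higher and 2 lower (−0.83), against 10.5% and 18.6% of all genes. In those without, 5 of 6 were higher and 0 lower (1.88), against 13.1% and 17.5%. Emcn had ratios of 0.55 (0.0954 to 1.47) on 3 UMIs and 7.96 (5.09 to 12.2) on 37, in the same order, and Cdh5 0.75 (0.176 to 1.82) on 4 UMIs and 5.27 (3.05 to 8.64) on 23. In the lymphatic list Prox1 was the 1 gene tested outside the rule, at 2.70 (2.06 to 3.50) over all chosen nuclei, 0.24 with Msln or Wt1 and 6.05 without. Flt4, the receptor of VEGF-C, had 0 UMIs with and 4 without.

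The lowest ratios belonged to genes with no UMI in chosen nuclei. Arhgap15, a Rac regulator of leukocytes, had 110 UMIs in the others and was at least 7.18-fold lower, with a limit of 3 UMIs over all chosen nuclei. Atp8b1, a phospholipid flippase, was at least 6.07-fold, Itgb5, an integrin chain, at least 5.81-fold, and Frem1, a matrix protein related to Fras1, at least 4.76-fold lower. The other 11 of the 15 lowest were at least 3.00-fold to 3.91-fold lower.

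Of the 15 genes with the most UMIs in chosen nuclei, 5 were unnamed loci whose ratios lay between 0.64 and 0.84. Others outside the rule and the leading genes included Ccdc80, a matrix protein (707 UMIs, ratio 2.49), Anxa1, a phospholipid-binding protein (673, 0.97), Slit3, a guidance ligand (633, 1.86), Snrnp70, a splicing factor (574, 0.52), Ackr3, a chemokine scavenger (539, 2.11), and Kazn, a desmosome-associated protein (490, 3.23).

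The rule was also applied to the 4 Parse rat libraries, called here by their deposited labels. They were read by another chemistry against another build, in another batch per the labels, so levels stand side by side and were not compared. No barcode was shared between libraries. The Parse libraries labelled mesPVAT and RP had medians of 346 and 213 UMIs per nucleus, and those labelled taPVAT and BAT 1246 and 1706. In those labelled mesPVAT and RP, median genes were 304 and 197, and the most UMIs in a nucleus 41374 and 5611. The paper reports the opposite order, with fewer median genes and a lower top UMI count in mesPVAT than in RP fat. Whether these labels are exchanged was not settled, so the depot of either library is uncertain. Of the nuclei labelled mesPVAT the rule took 83 of 3028 (2.74%; 2.19 to 3.39%), and it took 35 of 2708 (1.29%; 0.902 to 1.79%) in taPVAT, 21 of 2805 (0.749%; 0.464 to 1.14%) in RP fat and 8 of 2699 (0.296%; 0.128 to 0.583%) in BAT. Krt19 was in these files, with 5, 6, 1 and 0 UMIs in the chosen nuclei in that order. Of the chosen nuclei, 25 of 83, 11 of 35, 4 of 21 and 1 of 8 had a UMI of Msln or Wt1.

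The depot of the Parse library labelled mesPVAT is uncertain, as said above. Its chosen nuclei had the mesothelial genes outside the rule at 3534 CPM against 820 CPM in its other nuclei. Wfdc21 had 12 UMIs in 10 of the 83 chosen nuclei and 3 UMIs in its other nuclei. Prox1 had 2 UMIs in the chosen nuclei, or 35.5 CPM (4.30 to 128.3), and stood at 32.5 CPM in the others. Of the 25 leading genes of the 10x library, 24 were in this file and 4 had enough expected UMIs, Fras1, Ppp2r2b, Ror1 and Myo1d, an unconventional myosin. All 4 were higher, at ratios of 5.02, 2.67, 3.48 and 2.50, where 5.99% of 2220 tested genes were higher. Below that limit, Cgn had 28 of 59 UMIs in the chosen nuclei, Dhrs9 25 of 54 and Dsp 21 of 60. RGD1561149 had 1 of 26, a ratio of 1.67 (0.0277 to 6.94), Me3 had 1.73 (0.692 to 3.31) on 8 UMIs and Neurl1 2.29 (0.393 to 6.19) on 3. Over the 1762 genes tested in both libraries, 73 were higher in both, which is 30.7% of the 238 higher in the 10x library and 60.3% of the 121 higher in the Parse library. Of all 1762 genes, 13.5% were higher in the 10x library and 6.87% in the Parse library.

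In taPVAT the 35 chosen nuclei were mixed, as in the 10x library. Wfdc21 had 11 of its 13 UMIs in them, at 266 CPM, while Prox1 had 32 UMIs in 13 of them, at 773 CPM (529 to 1091) against 16.6 CPM in the others. The mesothelial genes outside the rule summed to 4467 CPM in the chosen nuclei and 608 CPM in the others. In RP fat these sums were 1537 CPM (1044 to 2181) and 1073 CPM, with 1 UMI of Wfdc21, and in BAT 673 CPM (219 to 1572) and 448 CPM, with none. The 8 chosen nuclei of BAT held 14 UMIs of Pkhd1l1 in 4 nuclei and 9 of Prox1 in 3. Cadm2, a synaptic adhesion protein, had 40 UMIs in 4 of them, and Scn7a, a sodium channel of glia and neurons, 35 in 3. Gpm6a had 8 UMIs in 4 nuclei, Wt1 and Lrrn4 had 1 each, and Msln had 0. Scn7a was named after its values were seen. Over the 8 nuclei together the mesothelial label was thus not borne out, and single nuclei were not judged.

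**Figure D5:**
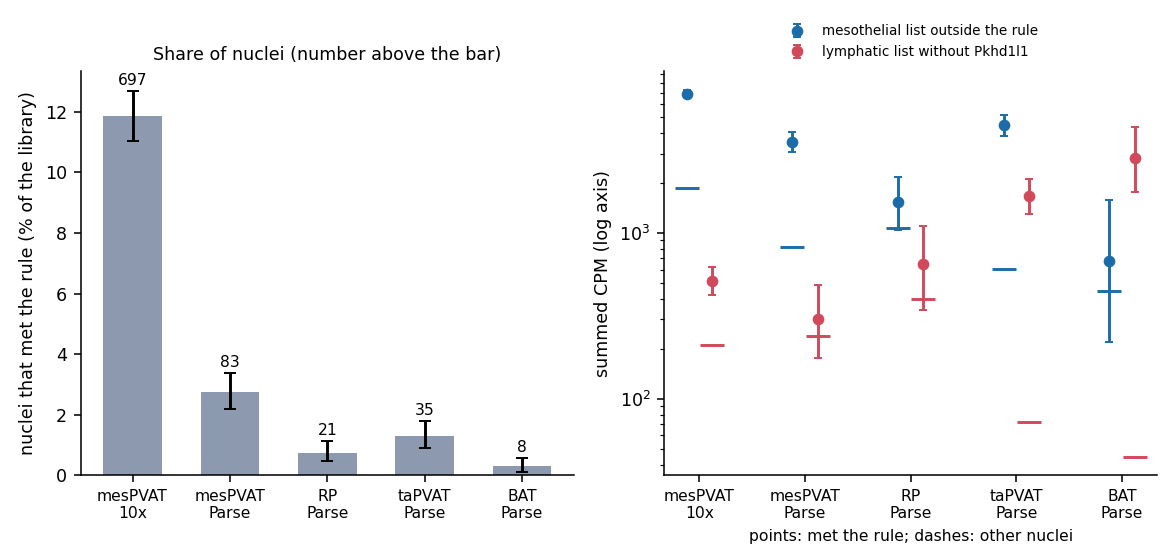
Left, share of nuclei that met the rule in each rat library (bars, exact binomial 95% intervals, number of nuclei above). Right, summed CPM (log axis) of the mesothelial genes outside the rule (blue) and of the lymphatic list without Pkhd1l1 (red) in chosen nuclei (points with exact Poisson 95% bars) and in other nuclei (dashes). The red sums were drawn from Prox1, Mmrn1, Flt4, Reln and Ccl21, without Lyve1 of that list. The blue point lies farthest above its dash in the 10x, Parse mesPVAT and taPVAT libraries, and the red point in taPVAT and BAT.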

How the data were processed

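For the 10x library the authors deposited UMI counts per gene and barcode called by Cell Ranger 7.1.0, with no normalization, and for the Parse libraries they deposited UMI counts from split-pipe. The genome named for the 10x library is Rnor_6.0, that of the Parse rat libraries GRCr8. FastQC and Scanpy are named in the submitters' processing notes. All deposited barcodes were used. The 10x library held 1237543 UMIs and the Parse rat libraries 845316 to 6317970.

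Groups were taken from the labels. The nuclei, the gene lists and the split by Msln or Wt1 were chosen with earlier results of these data known, and the split and a limit on the UMIs of the other nuclei alone were added after the data were seen. UMIs were summed over nuclei and scaled to CPM, and genes with at least 5 UMIs expected from the share of UMIs were read at a ratio of 2 with 0.5 UMI added. A ratio from a few UMIs depends on that addition. Intervals at 95% are exact Poisson for sums, exact binomial for shares and ratios and from order statistics for medians. A count of 0 has a limit of 3 UMIs. No test was made, since each condition had 1 library. Genes named are the 20 rule genes and Wfdc21, the 25 largest and 15 smallest ratios (25 with a UMI in at least 5 nuclei), the 15 with most UMIs, and from each list the genes past 2-fold, up to 4 with most UMIs and markers at 0. Other names are said to be chosen later.

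Nuclei with at least 100 UMIs were clustered without the rule genes, after normalization to 1000 UMIs and log transformation, by Leiden at resolution 1.0 on 30 components of 2000 variable genes with 15 nearest neighbours (seed 20). A nucleus was assigned to an adipocyte, endothelial, stromal or macrophage list by the same kind of rule on its 3 genes. Scrublet at an expected rate of 5% marked 1 of 5135 nuclei and 0 chosen ones, a share too small for a working caller, and doublets were not removed. The ratio step was checked on simulated data. The tools were scanpy 1.11.5, matplotlib 3.10.9, scipy 1.17.1, numpy 2.4.6 and pandas 2.3.3 under Python 3.11.15. Krt19, Muc16, Ptgis and some further members of the gene lists could not be matched by symbol in the 10x file and were not analysed there. Some genes that meet the naming rule are not reported here. Promoter sequences are from RefSeq, GRCr8, with the 50 bases after each start left out.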

Additional observations from a re-analysis of the deposited data

How the results depend on the processing

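No paired analysis was possible because each condition has 1 library and no test was made. With a mesothelial sum of at least 1, at least 3, or at least 2 with no UMI of the other genes, 1190, 387 and 450 nuclei were chosen, with medians of 161, 257 and 171.5 UMIs. Without Gpm6a, alone or with Krt19, 410 nuclei were chosen, and with at least 200 or 300 UMIs 337 and 201. Chosen nuclei with Msln or Wt1 numbered 401. The median number of genes was 257 after thinning to 300 UMIs and 165 without thinning. Genes called higher numbered 447 with no UMI of the other genes, 477 with at least 10 expected UMIs, 1478 at 1.5-fold, 353 at 3-fold and 498 with Msln or Wt1. Genes called lower numbered 617 with at least 10 expected UMIs, 1677 at 1.5-fold and 426 at 3-fold. Fewer genes or nuclei enter most of these settings. In nuclei chosen without the gene, the ratios were 3.23 for Msln, 5.28 for Wt1, 3.41 for Pkhd1l1, 3.60 for Upk3b, 4.15 for Bnc1 and 6.68 for Gpm6a. The share of chosen nuclei in their leading cluster was 48.3% at resolution 0.5, 34.7% at resolution 2.0, 63.1% with the rule genes kept and 53.3% for nuclei with Msln or Wt1. In Parse libraries, sums of at least 1, at least 3 and at least 2 with no UMI of the other genes chose 5.88%, 1.95% and 1.78% in the library labelled mesPVAT and 5.10%, 0.178% and 0.463% in RP fat. At least 1, and at least 2 with no UMI of the other genes, chose 1.85% and 0.406% in taPVAT, and at least 1 and at least 3 chose 0.593% and 0.111% in BAT. With Msln or Wt1, list medians of the log2 ratio turned to −0.96 for retinoid genes, −0.052 for complement, −0.83 for blood endothelium and −2.08 for the 1 lymphatic gene, and moved to −1.33 for macrophage and −2.97 for pericyte genes. With the limit on the other nuclei alone, also added after the data were seen, medians moved to 0.045 for complement, −1.89 for stromal and −1.33 for macrophage genes, since other genes pass it. The cause of the other moves was not tested. The other 59 alternatives, among them the study's fixed limits and another random seed, kept their values within 1.5 times, within the intervals or, for list medians, within 0.5. Depth is a limit: a nucleus with 195 UMIs shows few of its genes, so a nucleus without Msln or Wt1 UMIs may still express them.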

Other observations

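Cluster 1 also held 236 nuclei that the rule left out, with a median of 143.5 UMIs. In them the mesothelial genes outside the rule summed to 6238 CPM (5483 to 7069), against 1867 CPM over all nuclei outside the rule, and Wfdc21 stood at 583 CPM (370 to 875). Cluster 2 held 212 nuclei outside the rule, with Prox1 at 1421 CPM (1125 to 1771) and Foxp2 at 2572 CPM. These genes were clustered, so the values are a description.

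Of immediate early and stress genes, 9 were tested in the chosen nuclei of the 10x library, 1 was higher and 0 lower (median log2 ratio, 0.22). Of all tested genes 11.9% were higher and 14.8% lower, so the counts are no result about the list. Atf3, a stress-induced transcription factor, had 248 UMIs and a ratio of 3.15 (2.67 to 3.69), with 3.34 in nuclei with Msln or Wt1 and 2.90 in those without. Zfp36, which destabilizes mRNA, and Egr1 both stood at 0.80. Of hormone receptors, 9 were tested, 0 were higher and 4 lower (median, −0.81), against 14.8% of all tested genes lower. The lower ones were Ghr at 0.34, Prlr, the prolactin receptor, at 0.41 (0.17 to 0.76), Pparg, the adipocyte regulator, at 0.24 (0.12 to 0.42), and Ppara, with no UMI in chosen nuclei and 33 in the others, at least 2.15-fold lower. Ghr and Pparg are also in the adipocyte list, whose lower counts are in large part built in by the rule. In nuclei with Msln or Wt1 2 of 8 were lower (median, −0.43), against 18.6% of all genes. In those without, 4 of 8 were lower and 1 higher (−0.97), against 17.5% and 13.1%. Nr3c2, the mineralocorticoid receptor, stood at 1.67 (1.24 to 2.21), with 1.18 in nuclei with Msln or Wt1 and 2.36 in those without.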
